A study of Mus musculus with 8 samples.

Results

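A set of 10 genes of the Hippo pathway were followed on YTHDF3-bound RNA: Amotl1, Amotl2, Ajuba, Lats1, Lats2, Yap1, Wwtr1, Tead1, Ctgf and Cyr61. Their peaks were taken from 4 lists of YTHDF3 immunoprecipitation (IP) peaks by the gene name deposited with each peak. The 10 genes held 131 of the 87096 peaks kept, which joined into 52 of 39979 regions once overlapping peaks of the 4 lists were merged. A total of 15 of these regions, from 5 of the 10 genes, were called in all 4 lists, or 28.8% of the 52 against 16.3% of all regions.

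The Hippo pathway is a kinase cascade that limits tissue growth. The kinases LATS1 and LATS2 phosphorylate the coactivators YAP and TAZ (the products of Yap1 and Wwtr1), which keeps them in the cytoplasm, while unphosphorylated YAP and TAZ enter the nucleus and act with TEAD transcription factors such as TEAD1. Angiomotin-like scaffolds (AMOTL1 and AMOTL2) hold YAP at cell junctions, the LIM protein AJUBA restrains LATS kinases, and CTGF and CYR61 are secreted matricellular proteins whose genes are standard targets of YAP and TAZ. Amotl2 and Lats2 are themselves known as targets of YAP and TAZ.

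The RNA came from wild-type mouse embryonic fibroblasts (MEFs) of the C57BL/6 strain, isolated at 13.5 days post-coitum and used at passages 5 to 6. Cells were left in their usual medium (normal) or held without nutrients for 2 h (starved), with 2 replicates per condition, and RNA bound to YTHDF3, a cytoplasmic reader of the mRNA mark m6A, was recovered with an antibody to YTHDF3. Each of the 4 IP libraries was set against an input library, which the lists do not name and which was assumed to share its condition and replicate number. The labels number the replicates without saying that they are separate cultures or animals, so p-values measure the spread between these samples, which may be technical.

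The lists hold IP and input reads within called peaks alone, and a gene without a peak did not pass the calling threshold, which does not show that its RNA is absent. Kept peaks had an IP/input ratio of at least 2 and a p under 0.0001, and numbered 17364 to 24701 per library, with 8818619 to 19271667 IP reads and 2507434 to 5157523 input reads in them. The total depth of the libraries is unknown. Of the markers checked, 7 of 10 fibroblast genes (Col1a2, Col3a1, Fn1, Pdgfra, Pdgfrb, Sparc and Thy1) had a peak, as did 1 of 5 epithelial genes (Krt19), 1 of 4 endothelial genes (Kdr) and 0 of 4 leukocyte genes. Col1a1 and Vim, fibroblast genes of high expression, had no peak in any list.

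As sequence examples, 1 GGAC is given for each of the 5 genes with a region called in all 4 lists. It is the GGAC nearest the centre of whichever of these regions held the most IP reads in that gene. Each run was chosen for its GGAC, so the presence of GGAC in it is not a result. GGAC is the core of the sequence in which m6A is usually found. Each run is 25 bases of the mm10 genome, 5′ to 3′ on the transcribed strand, with the GGAC in capitals.
Amotl2: cgcatgttggGGACcgggatcctag
Amotl1: gtcgcgccggGGACcttgcgagcct
Ajuba: gcctgctgctGGACggagccggggc
Lats2: gcgtggacctGGACagcctgtgcac
Lats1: gggccctgggGGACgggctccgggc

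The Amotl2 run lies at chr9:102720519-102720543 on the plus strand, in the coding part of exon 2. The Amotl1 run lies at chr9:14614744-14614768 on the minus strand, in the coding start of exon 1. The Ajuba run (chr14:54576789-54576813, minus strand) and the Lats2 run (chr14:57699541-57699565, minus strand) are coding sequence as well, and the Lats1 run (chr10:7681365-7681389, plus strand) is 5′UTR. These regions held 4, 3, 16, 12 and 1 GGAC in the order printed. Over all 15 member regions, 13 held at least 1 GGAC (86.7%), with 7.53 GGAC per kb of exon, against 79.3% and 4.75 per kb in the 6396 regions called in all 4 lists that could be placed on exons. GGAC was searched on the transcribed strand only, over a median of 273 exonic bases in member regions and 374 in all, and a match is not a measured m6A site.

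On the transcripts, the coverage by peaks differed from gene to gene. Amotl2 had peaks over 10 of its 10 exons in each library except starved replicate 1 (9 exons), and over 92.0% to 100% of its mature mRNA. Ajuba had peaks over 7 or 8 of 8 exons in each library (95.3% to 100% of the mRNA), and Lats2 over 7 or 8 of 8 exons (78.4% to 89.9%). For the other scaffold, Amotl1, 5 and 9 of 13 exons lay under peaks in normal replicates 1 and 2, and 9 and 13 in starved replicates 1 and 2. Most of the added length in starved MEFs was the 3′UTR, and the covered share of the mRNA went from 21.4% and 27.2% to 78.4% and 78.7%. Lats1 had peaks over 4 and 5 of 8 exons in the normal libraries and over 7 and 6 in starved MEFs. These counts depend on the threshold of calling and on the number of reads, which was higher in the starved IP libraries, and were not tested.

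**Figure D1:**
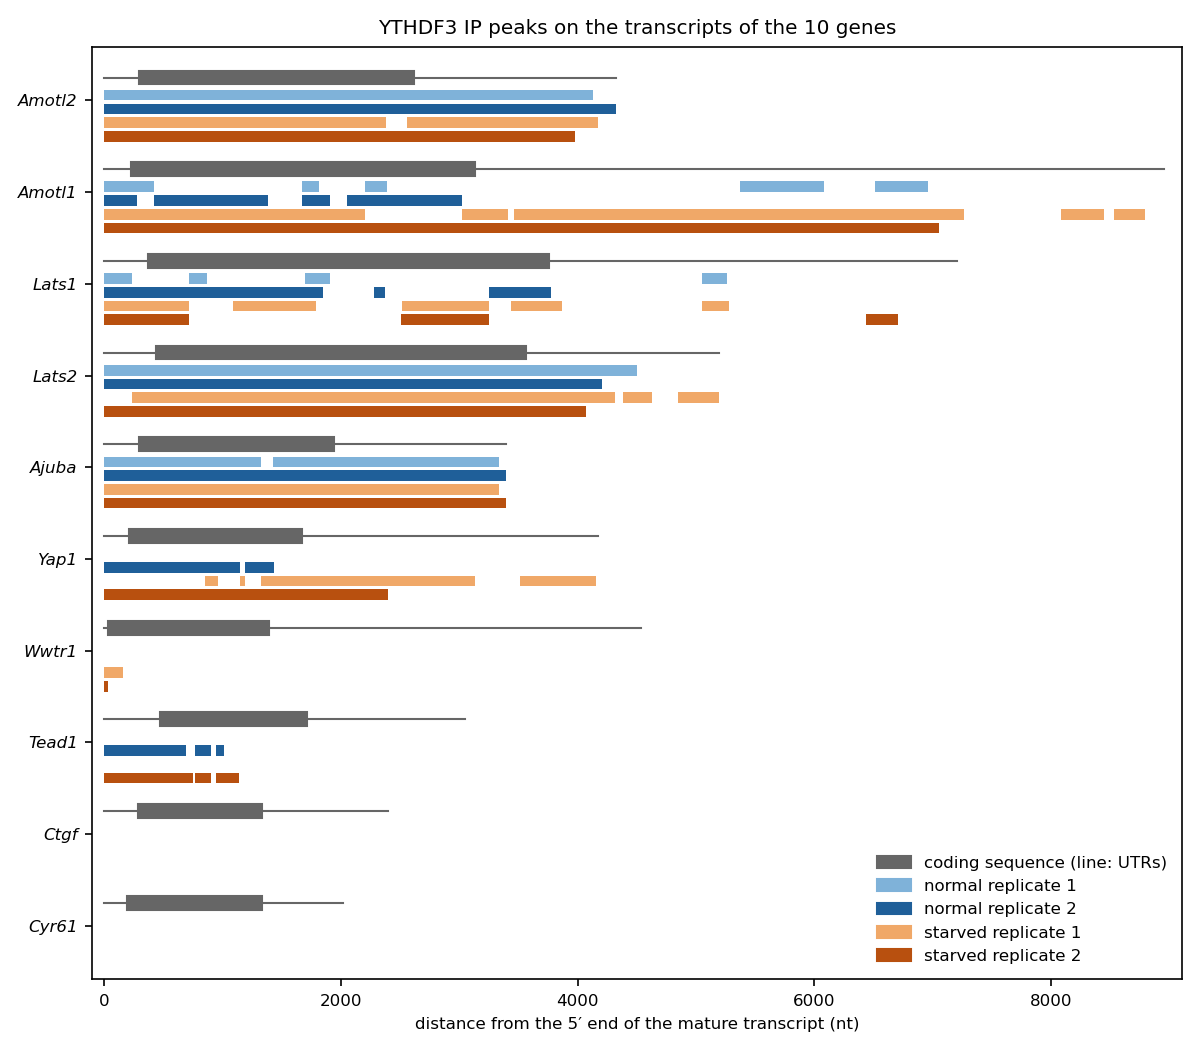
Position of YTHDF3 IP peaks on the mature transcripts of the 10 genes, as the distance from the 5′ end in nt, with 1 line per IP library in each gene and bars for the bases under a peak. Amotl2, Lats2 and Ajuba are covered in the 4 libraries, Tead1 in replicate 2 alone, and Ctgf and Cyr61 in none.

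The deposited name is that of the nearest promoter, and it did not always name the bound transcript. The 2 regions named Ctgf lie in the 3′UTR of Enpp1, the region named Cyr61 lies in Gm17501, and 5 regions named Ajuba (starved replicate 1 alone) lie in 4931414P19Rik. Ctgf and Cyr61 transcripts therefore had no peak on any of their 5 exons in any library. Conversely, 26 regions over exons of Amotl1, Amotl2, Lats1, Lats2, Yap1 and Tead1 carried the name of a neighbouring gene. Of those, 2 over Amotl2 (named Gm5627) and 3 over Lats2 (named Xpo4) were called in all 4 lists, so that the 15 regions became 20 when members were taken by exon overlap, a choice made after seeing the data. The peaks carry no strand, and the Lats2 regions over exons 1 to 6 overlap Gm49361 on the same strand, with Gm20430 and Gm26440 on the opposite strand of the region over exons 4 and 5, so reads of these genes cannot be told apart.

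Amotl2 had the highest IP reads per kb of the 15 member regions and the clearest difference between conditions. Its region over exon 2 (chr9:102719861-102721120, 734 bases of coding sequence and 62 of 5′UTR) held 11799 and 13262 IP reads in normal replicates 1 and 2, and 6461 and 7718 in starved replicates 1 and 2. After TMM normalization, which scales each library to the regions it shares with the others, and division by the covered length, these were 12363 and 12198 IP reads per kb in the normal libraries against 4335 and 5350 in starved MEFs. Both starved libraries lay below both normal libraries. The log2 change of IP reads per base was -1.34 ± 0.20 (SE), a level 2.54-fold lower in starved MEFs (adjusted p = 0.0256, edgeR quasi-likelihood test with Benjamini-Hochberg adjustment over 6531 regions).

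The other Amotl2 regions moved in the same way along the transcript. Over exon 1 (chr9:102717531-102718140, all 5′UTR), IP reads per kb were 4076 and 3079 in the normal libraries and 1378 and 997 in starved MEFs, with a log2 change of -1.59 ± 0.26 (SE). Over exon 6 (chr9:102728081-102728850), they were 5654 and 4669 against 1883 and 1851, with a log2 change of -1.47 ± 0.21 (SE). The groups did not overlap in any of the 5 regions, whose log2 changes ran from -1.59 to -1.34 with adjusted p from 0.0217 to 0.0314 (edgeR quasi-likelihood test). The regions over exons 7 and 8 and over exon 10, named Gm5627, changed by -1.37 and -1.45 (adjusted p = 0.026 and 0.016, edgeR). All of these regions belong to 1 transcript and are not independent of each other.

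The input fell with the IP over Amotl2. In the exon 2 region, input reads were 3885 and 4447 in the normal libraries and 1143 and 1729 in starved MEFs, or 3454 and 2841 normalized input reads per kb against 1180 and 1322. This was a log2 change of -1.33 ± 0.21 (SE, adjusted p = 0.0243, edgeR). Input reads per base passed the test in 4 of the 5 regions, with changes from -1.58 to -1.33. The region over exon 1 did not pass, at -1.44 ± 0.36 (SE, adjusted p = 0.138, edgeR), with 909 and 842 input reads per kb in the normal libraries and 441 and 210 in starved MEFs. It did pass in 5 of the 10 alternative fits, among them DESeq2. In these bulk cultures, fewer cells of a type and less RNA per cell cannot be told apart.

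**Figure D2:**
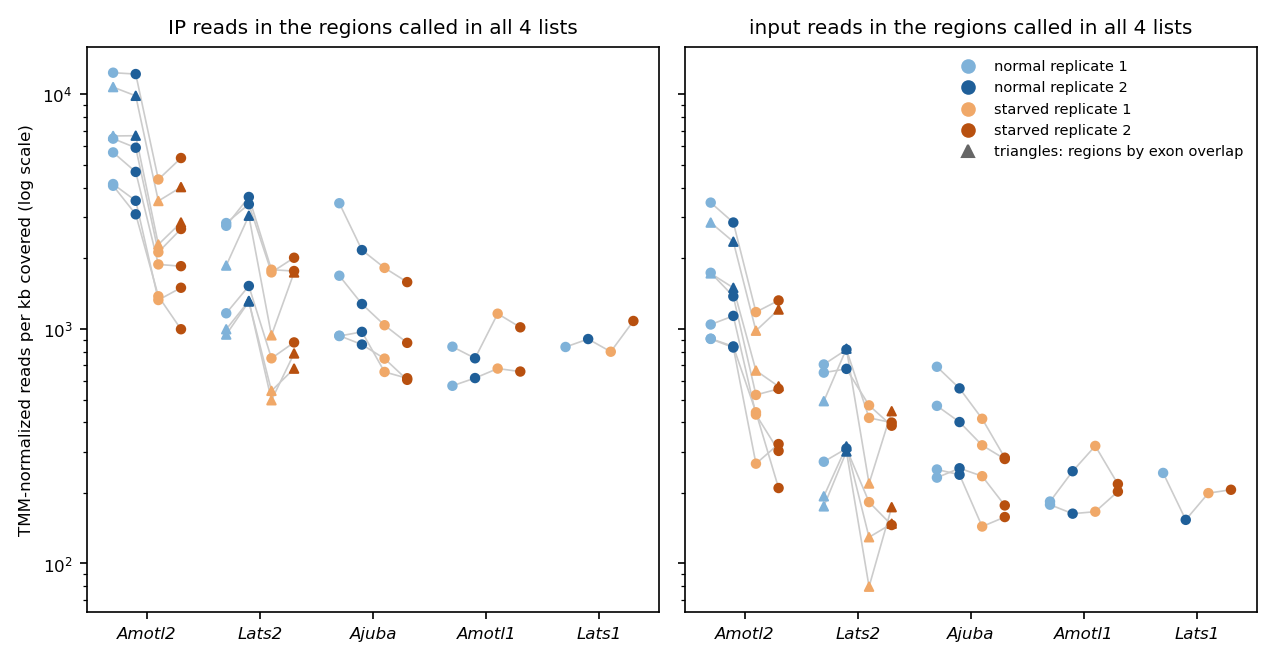
TMM-normalized IP reads (left) and input reads (right) per kb of covered sequence, on a log axis, for each region of the 5 genes called in all 4 lists. Each line joins the 4 libraries of 1 region, circles mark regions that carry the gene's deposited name and triangles those placed by exon overlap; the Amotl2 regions drop from normal to starved in both panels.

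The IP/input fold of Amotl2 showed no such difference. In the exon 2 region it was 2.45 and 2.98 in normal replicates 1 and 2, and 2.42 and 2.98 in starved replicates 1 and 2. The log2 change of the IP/input ratio, tested over the 8 IP and input libraries, was within -0.09 to 0.13 for the 5 regions, each with an adjusted p of 0.999 (edgeR quasi-likelihood test). The 95% intervals of these changes reached from -0.58 to 0.57, so changes of the ratio within these bounds remain compatible with the values. These bounds are not the smallest change that the test could call with 2 replicates per condition. Each tested region also had a ratio of at least 2 in every list by selection. Folds differed more between replicates than between conditions in some regions, as over exon 1, with 3.07 and 2.54 in the normal libraries and 2.06 and 3.49 in starved MEFs.

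Lats2, the kinase that phosphorylates YAP and TAZ, had lower values in starved MEFs. These did not pass the edgeR test of all libraries without a replicate block (a term for the replicate number). With the block, its 3 tested named regions passed for IP reads. Its region over exons 4 and 5 (chr14:57696691-57700780, 1884 bases of coding sequence) held 2826 and 3400 normalized IP reads per kb in the normal libraries and 1741 and 2011 in starved MEFs. The log2 change was -0.73 ± 0.20 (SE, adjusted p = 0.217, edgeR). Over exon 2 (chr14:57733651-57734650), IP reads per kb were 2751 and 3651 against 1788 and 1765, with a log2 change of -0.85 ± 0.22 (SE, adjusted p = 0.186, edgeR). In each of the 3 named Lats2 regions both starved libraries lay below both normal libraries, for IP and for input reads. The shares over all regions were 19.7% for IP and 19% for input reads. The IP call over exon 2 is made without normal replicate 1 (adjusted p = 0.0305, edgeR) and by DESeq2 (adjusted p = 0.0268). The input changes ran from -0.90 to -0.63 (adjusted p from 0.172 to 0.447, edgeR), and the change of the IP/input ratio from -0.11 to 0.10. Input reads passed over exon 2 with the block and by DESeq2, and over exons 4 and 5 with the block.

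Its paralogue Lats1 had 1 region in all 4 lists, over the 5′UTR in exon 1 (chr10:7680771-7681650). It held 837 and 905 normalized IP reads per kb in the normal libraries and 799 and 1081 in starved MEFs, groups that overlap. The log2 change was 0.11 ± 0.23 (SE, 95% interval -0.43 to 0.64, adjusted p = 0.928, edgeR). Its IP/input fold was 2.36 and 4.10 in the normal libraries and 2.64 and 3.85 in starved MEFs, higher in replicate 2 of both conditions. Whether the changes of Lats1 and Lats2 differ from each other was not tested.

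Ajuba, the LIM protein that restrains LATS kinases, also had lower values in starved MEFs. These did not pass the edgeR test of all libraries without a replicate block. With the block, its named regions called in all 4 lists passed for IP reads, except that over exons 3 and 4. In its region over exon 1 (chr14:54575991-54577740), with 3433 and 2168 normalized IP reads per kb in the normal libraries and 1820 and 1583 in starved MEFs, the log2 change was -0.72 ± 0.26 (SE, adjusted p = 0.362, edgeR). This region passed without normal replicate 2 (adjusted p = 0.0249, edgeR). The 4 named Ajuba regions on the transcript had IP changes from -0.72 to -0.41 (adjusted p from 0.35 to 0.616, edgeR) and input changes from -0.84 to -0.25. Of these, the input reads over exon 1 passed with the block. In the region over exons 7 and 8 (chr14:54567411-54569770) the best peak had a fold of 4.42 in normal replicate 1 against 2.14 in starved replicate 1, but the higher value came from a peak of 170 IP reads, and the fold over all reads of the region was 2.45.

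Amotl1, the other scaffold, had higher IP values in starved MEFs. Over exon 1 (chr9:14614511-14615070), IP reads per kb were 840 and 749 in the normal libraries and 1161 and 1016 in starved MEFs, with a log2 change of 0.45 ± 0.21 (SE, 95% interval -0.04 to 0.95, adjusted p = 0.526, edgeR). Over exon 5 (chr9:14572441-14573040) they were 572 and 617 against 678 and 658, with a log2 change of 0.17 ± 0.21 (SE, adjusted p = 0.879, edgeR). Both starved libraries lay above both normal libraries for IP reads in both regions, and overlapped them for input reads. Neither region passed the test.

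Counted over the 15 member regions, IP reads per base passed the edgeR test as lower in starved MEFs in 5 regions and as higher in 0, where 0.934% of the 6531 regions were lower and 0.184% higher. All 5 are the Amotl2 regions above, so the count is that of 1 gene. Input reads per base passed as lower in 4 member regions and as higher in 0, against 0.766% and 0.214% of all regions. The IP/input ratio passed in 0 of 15 by edgeR, against 0.0153% higher and 0% lower of all regions. At an unadjusted edgeR p under 0.05 it counted 0, against 2.8%, and by DESeq2 0, against 0.0153%. Every tested region had a peak with a ratio of at least 2 in each list. A region whose ratio fell below 2 in any library was therefore not tested, which limits what the ratio test can show. By edgeR at an unadjusted p under 0.05, 11 member regions were counted for IP reads (10.4% of all regions) and 11 for input reads (8.24%), and DESeq2 called 6 and 6 (2.76% and 1.93%). Both starved libraries were below both normal libraries in 12 of 15 regions for IP reads (19.7% of all) and in 11 for input reads (19% of all), and above them in 2 (20.1%) and 0 (18.5%). The 12 regions lower in the IP were 5 of Amotl2, 4 of Ajuba and 3 of Lats2, and the 2 higher were both of Amotl1. The 11 regions counted for IP and the 11 for input also belong to Amotl2, Ajuba and Lats2. The median log2 change of IP reads per base was -0.73 over the 15 regions and 0.01 over all 6531. Regions of 1 transcript are not independent, so these counts and this median are not those of separate genes.

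The call over Amotl2 rests on both starved libraries. With starved replicate 1 left out, which leaves a lone starved library assumed to vary as the normal ones do, 1 of the 5 regions passed, that over exon 1, and the other 4 had adjusted p from 0.105 to 0.243 (edgeR). With starved replicate 2 left out, 3 passed, and the regions over exon 1 and exon 6 had adjusted p of 0.0677 and 0.0515. With no correction for the covered length, 0 of the 5 passed, as did 0 of all 6531 regions. The log2 change was below 0 in all 50 refits of these 5 regions, from -1.84 to -1.20. The call on the input of the exon 2 region is lost without normal replicate 1 (adjusted p = 0.0502, edgeR).

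**Figure D3:**
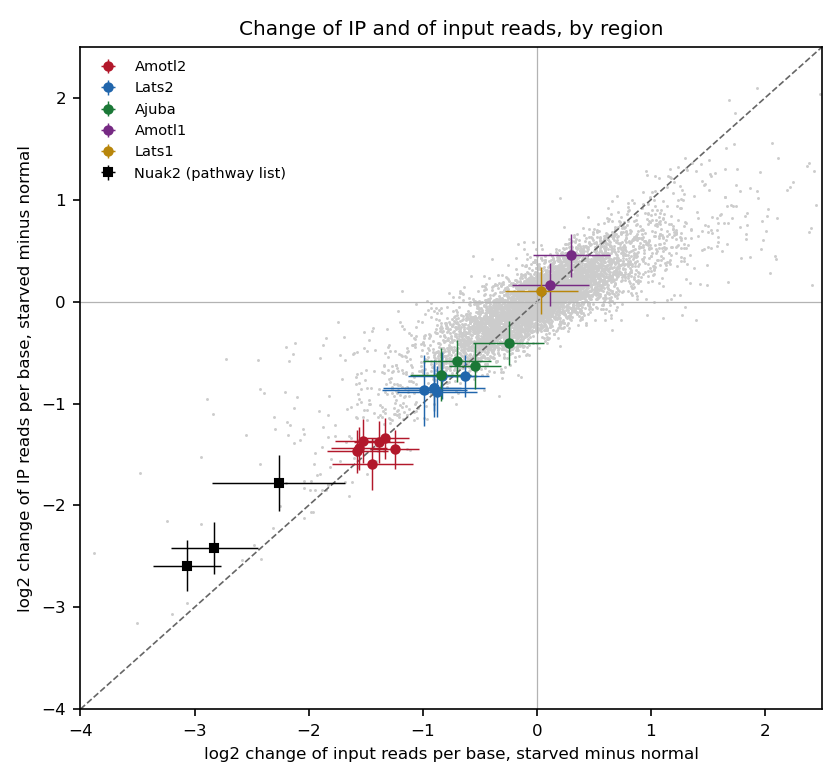
Log2 change (starved minus normal) of IP reads per base against that of input reads per base, with 1 point per region called in all 4 lists, grey for all 6531 regions and coloured for the members. Regions placed by exon overlap are drawn with the named ones. The Amotl2 regions lie near -1.4 on both axes and the 6 Lats2 regions nearer to 0. Black squares are the Nuak2 regions of the pathway list, and 38 regions of the 6531 fall outside the axes.

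The IP/input fold itself was compared within each replicate number, as the highest fold of a peak in the region. In the 15 regions it ran from 2.20 to 4.42 in normal replicate 1 and from 2.11 to 4.10 in normal replicate 2. It ran from 2.06 to 3.97 in starved replicate 1 and from 2.31 to 4.51 in starved replicate 2. The 3.97 is the Lats2 region over exons 4 and 5, from a peak of 102 IP and 11 input reads, and the fold over all reads of that region was 2.43. Its change in replicate 1 was 1.23 by the best peak and 0.818 over all reads. The fold of starved over normal MEFs had a median of 0.989 in replicate 1 and 1.13 in replicate 2, against 0.961 and 1.05 over all 6531 regions. Both replicates passed a 1.8-fold change of the fold, with the same sign, in 0 of 15 member regions and in 0.72% of all regions. This count is a description with no test.

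**Figure D4:**
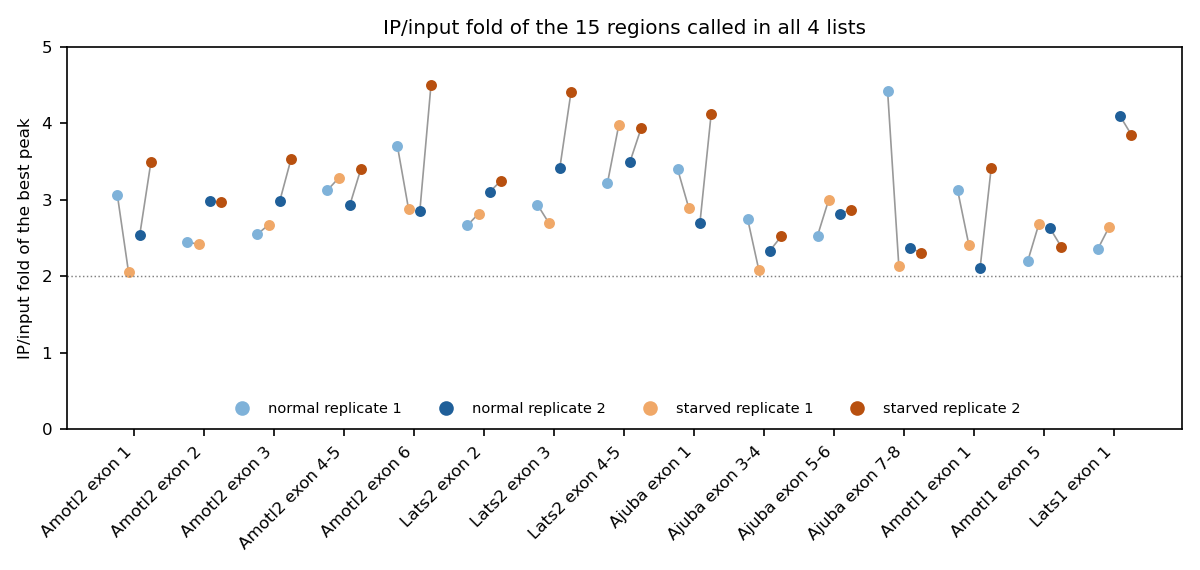
IP/input fold of the best peak in each of the 15 member regions, with 1 point per IP library and regions grouped by gene. The values lie between 2.06 and 4.51 in both conditions, above the ratio of 2 that every kept peak had to reach. The points at 4.42 for Ajuba and 3.97 for Lats2 rest on peaks of 170 and 102 IP reads.

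The effectors downstream of the kinases were called less evenly. Yap1 had no peak in normal replicate 1, and peaks over 7 of 9 exons in normal replicate 2, 4 in starved replicate 1 and 9 in starved replicate 2. In replicate 2, where both conditions were called, the fold over exon 1 (chr9:8003881-8004940) was 3.96 with 2203 IP and 556 input reads in normal MEFs, and 2.91 with 3636 IP and 832 input reads in starved MEFs. Over exon 2 it was 2.57 and 2.40, and over exon 3 it was 2.42 and 2.49. The Yap1 region over exon 4 was called in 3 libraries, at 2.32 in normal replicate 2, 2.13 in starved replicate 1 and 2.57 in starved replicate 2. Gm45494 and Gm20416 overlap the regions over exons 1 and 3 on the opposite strand.

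Wwtr1, which encodes TAZ, had a single small region at its first exon (chr3:57575751-57576080) in the starved libraries alone. It held 46 IP and 4 input reads in starved replicate 1, a fold of 4.93, and 14 IP and 0 input reads in starved replicate 2, a fold of at least 3.11 against a floor of 3 input reads. Too few reads lie in it to compare the conditions.

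Tead1, the DNA-binding partner of YAP and TAZ, had peaks in replicate 2 of both conditions and in neither replicate 1. The fold over exon 1 (chr7:112679251-112679950) was 3.37 in normal replicate 2 and 2.62 in starved replicate 2, with 1255 and 1889 IP reads. Over exon 2 it was 2.51 and 2.27, and over exon 3 it was 2.09 and 2.06, close to the threshold of 2 for a peak. Each of these values is from 1 library, so no error can be given. 2310014F06Rik overlaps the region over exon 1 on the opposite strand.

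Beyond the 10 members, 91 other genes of the pathway were listed, of which 73 had a peak and 25 had a total of 68 regions in all 4 lists. IP reads per base passed the edgeR test as lower in 3 of the 68 regions and as higher in 0, against 0.934% and 0.184% of all regions. Input reads passed as lower in 3 and higher in 0, against 0.766% and 0.214%. The IP/input ratio passed in 0 by edgeR and by DESeq2, against 0.0153% of all regions by each. The 3 regions lower in the IP are those of Nuak2, an AMPK-related kinase and reported target of YAP. Its region at chr1:132331181-132333250 held 1495 and 1109 normalized IP reads per kb in the normal libraries and 193 and 239 in starved MEFs. The log2 change in the IP was -2.59 ± 0.25 (SE, adjusted p = 0.00761, edgeR), on 2287, 1984, 393 and 478 IP reads. In the input it was -3.07 ± 0.29 (SE, adjusted p = 0.00289, edgeR). Input reads were 611 and 727 in the normal libraries and 42 and 76 in starved MEFs. The fold of its best peak was 3.02 and 2.73 in the normal libraries and 5.11 and 4.59 in starved MEFs. The log2 change of its IP/input ratio was 0.47 ± 0.23 (SE, unadjusted p = 0.0535, adjusted p = 0.999, edgeR), which did not pass.

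The other Nuak2 regions changed by -2.41 and -1.78 in the IP (adjusted p = 0.00761 and 0.028, edgeR). Of their inputs the first passed the test, at -2.83 (adjusted p = 0.0122, edgeR). Their IP/input ratios changed by 0.42 ± 0.35 and 0.46 ± 0.48 (SE, adjusted p = 0.999 for each, edgeR). The starved inputs held 10 and 18 reads in the first region and 2 and 11 in the second region. The second is lost in the IP without starved replicate 1 (adjusted p = 0.0789, edgeR). Thbs1, which encodes the secreted matrix protein thrombospondin-1, had a region (chr2:118111061-118112320) with a log2 change of -0.97 ± 0.16 (SE, adjusted p = 0.0272, edgeR) in the input and -1.02 ± 0.22 (SE, adjusted p = 0.0917, edgeR) in the IP. The input call is lost without normal replicate 1 (adjusted p = 0.0504, edgeR). With 1 library left out at a time, 2 to 8 regions of the list passed in the IP, the highest without normal replicate 1, and 2 to 8 in the input, the highest without starved replicate 2.

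By role, the median log2 change of IP reads per base was -0.53 over 12 regions of reported YAP and TAZ target genes, with 11 of 12 below 0, as were 3191 of all 6531 regions. Of these 12 regions, 3 belong to Nuak2, 2 to Thbs1 and 2 to Edn1. The median was -0.86 over 7 regions of a list of core kinases, their adaptors and upstream kinases. Of these, 5 belong to the kinase gene Nuak1 and the rest to Stk25 and Taok2, so no other gene of that list entered the median. It was -0.10 over 35 regions of junction and scaffold regulators, 0.11 over 5 regions of the STRIPAK phosphatase complex and 0.00 over 9 regions of TEAD family members and nuclear partners, where 0.01 was the median of all regions. Regions of listed target genes other than Nuak2 and Thbs1 did not pass any of the 3 tests.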

How the data were processed

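YTHDF3 RIP-seq libraries of normal and starved MEFs were analysed from 4 lists of peaks. The authors used Trimmomatic to trim reads, TopHat2 2.0.13 to align them to mm10, diffReps to find peaks of the IP over the input in each library, and HOMER to name the peaks. The IP and input values they deposited are a signal, in which the reads of a peak were scaled by 1 factor per library, and for normal replicate 2 (factors of 1) the authors deposited counts of reads. The p-values the authors deposited are those of diffReps for each peak, and the log2 ratios beside them were not used. Dividing by the factor gave whole reads (within 0.1) for 100% of the values checked. The largest values were left out of this check and were rounded to whole reads.

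The study's thresholds for a peak, an IP/input ratio of 2 or more with a p below 0.0001, were applied, and peaks were joined into regions at an overlap of at least 1 bp. Folds on fewer than 3 input reads were computed against 3. For the 6531 regions shared by the 4 lists, the quasi-likelihood test of edgeR 4.0.16 (R 4.3.3) was used with TMM and Benjamini-Hochberg adjustment over all of these regions at 0.05, with the log of the covered length as an offset for IP and for input reads, and for the ratio over 8 libraries with a term for each IP library and the input assumed to belong to it. The alternatives included DESeq2 1.42.0. The scripts were tested on simulated data. Exons came from the GENCODE annotation of mm10. Tables and plots were made with Python 3.11.15, pandas 2.3.3, numpy 2.4.6 and matplotlib 3.10.9.

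The members, the gene lists and the tests were chosen with earlier results of these data known. All 10 members are named, and of the pathway list the genes with a region past the threshold in any of the 3 tests. Nuak1, Stk25, Taok2, Edn1, Col1a1 and Vim were named after their values were seen.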

Additional observations from a re-analysis of the deposited data

How the results depend on the processing

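No called value changed sign under the alternatives run. With peaks limited to an IP/input ratio of at least 4, 0 member regions were called in all 4 lists, so the tests and the count of 1.8-fold changes could not be run there. That count went from 0 to 1 in replicate 1 alone and was 0 in replicate 2 alone. Member regions past the threshold in IP reads per base were 5, and 0 with no correction for covered length. With a replicate block they were 11 (5 of Amotl2, 3 of Lats2 and 3 of Ajuba). Lats2 and Ajuba had none in the edgeR fit of all libraries without the block. For input reads these counts were 4, 0 and 8, and the counts for IP and for input also moved with 1 library left out. In the pathway list they were 3 for IP reads, 7 by DESeq2, 13 with a replicate block (12 lower and 1 higher) and 2 to 8 with 1 library left out, and for input reads 3, 7 with a replicate block and 2 to 8. The block changed no call of the IP/input ratio, which stayed at 0 for members and list. Replicate numbers are shared by label alone. The paper states that its cell culture experiments were run on different days, but it ties no replicate number to a day. The differences between replicates 1 and 2 had an r of 0.451 (IP), 0.244 (input) and 0.229 (ratio) between the conditions across 6531 regions. Over all regions, IP calls went from 73 to 180 by DESeq2, 650 with the block and 39 to 201 with 1 library left out, and input calls from 64 to 126, 258 and 93 to 201. With members by exon overlap, chosen after seeing the data, 7 of 20 regions passed for IP reads, 6 for input reads and 0 for the ratio. The cause of these differences was not tested. Library depth is unknown, so a peak missing from a list cannot be told from low depth, and 2 replicates per condition limit the tests.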
